A study of Rattus norvegicus with 15 samples.

Results

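Adra1a, Adra1b, Adra1d and Adrb1, which encode receptors for noradrenaline and adrenaline, were examined together with Npy and Th, genes of the sympathetic transmitter system, and Pmp22 and S100b, genes known from the Schwann cells that wrap nerve fibres. All probe sets whose single platform gene symbol was one of these 8 genes were taken, which gave 11 probe sets of 8740 on the arrays, for 8 of 4736 named genes. Adra1d, Pmp22 and S100b had more than 1 probe set each. The study measured rat mesenteric arteries, the small arteries of the gut, on 15 arrays: 4 of collateral and 4 of control arteries from the spontaneously hypertensive rat (SHR), and 4 of collateral and 3 of control arteries from the Wistar Kyoto rat (WKY). SHR rats are inbred and become hypertensive as they grow, and WKY is the normotensive strain usually set beside them. In both strains a collateral artery was one made to carry extra flow by occluding arteries beside it, and the other arteries were labelled control. The labels give no time after occlusion, age or sex, and they do not say whether each array held 1 animal, so the p-values below cover the spread between these arrays, which may be technical.

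Sympathetic nerves run in the outer layer of small arteries and release noradrenaline, together with ATP and neuropeptide Y, onto the smooth muscle. Alpha1 receptors couple to Gq and calcium release and contract the muscle, while beta receptors couple to Gs and cyclic AMP. The cell bodies of these nerves lie in ganglia away from the artery, and the artery holds their axons and the Schwann cells beside them, so a sample of artery holds little of the cell bodies where most transmitter mRNA is made.

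Each value below is the log2 of the MAS5 signal of 1 probe set, a summary of its brightness. Because probe sets differ in how they bind, a level is compared with other arrays of the same probe set and with the 20th percentile of its own array, below which it is called dim, and not with the level of another gene. Of the 11 probe sets, 9 were at or above their array's 20th percentile on all 15 arrays, or 81.8%, against 53.9% of all probe sets. The probe set of S100b named S53527mRNA_s_at was dim on 1 array. The second probe set of Adra1d, M60654_at, was dim on 8 arrays, failed the filter on low signal and was left out of the tests, which kept 10 of the 11.

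**Figure D1:**
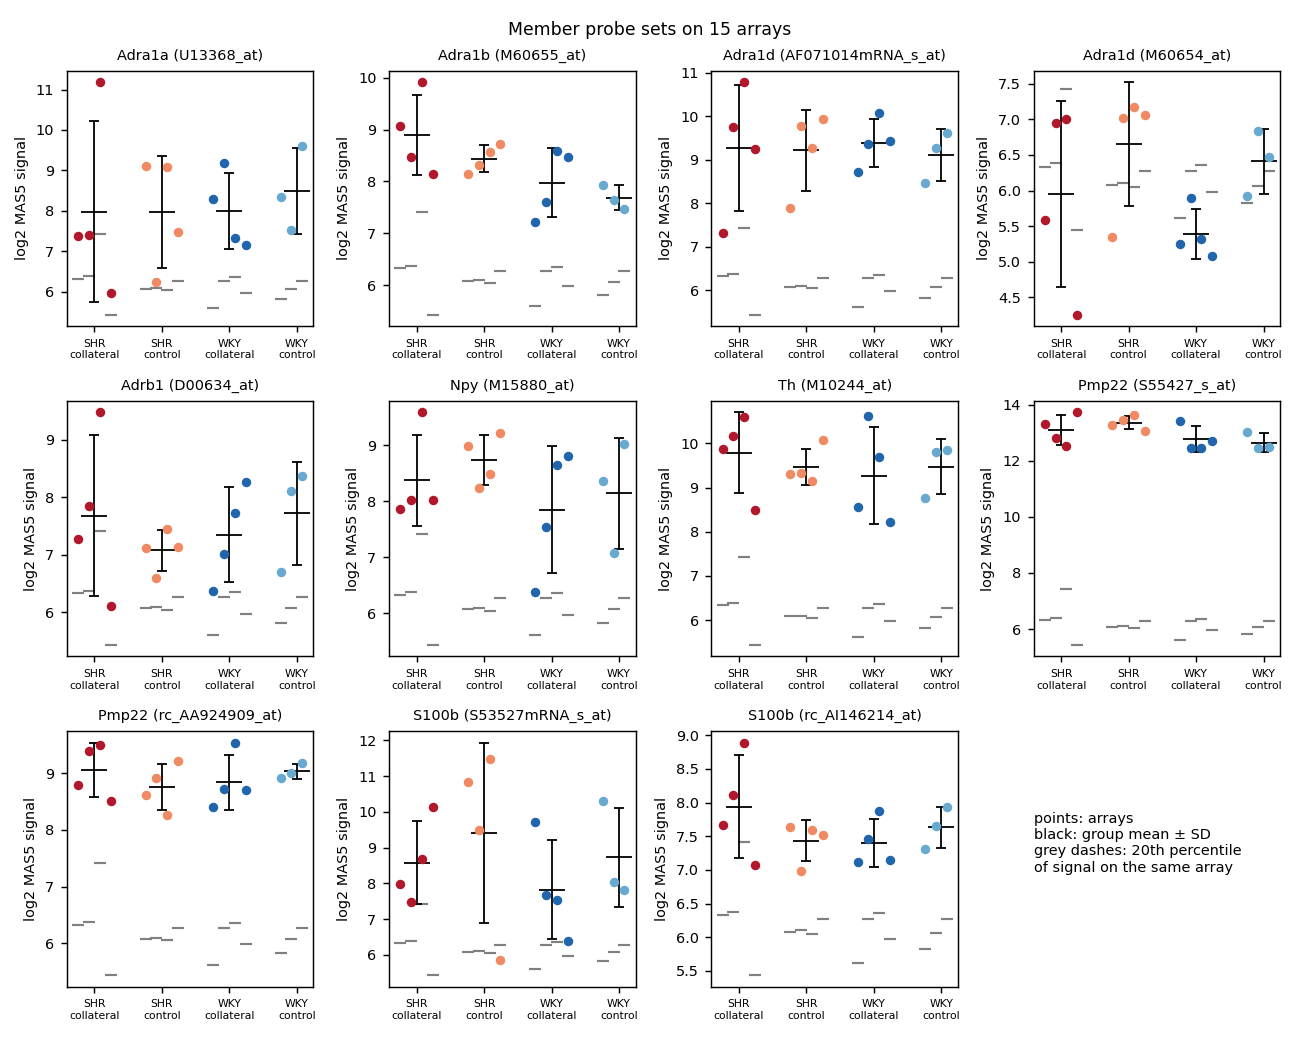
Log2 MAS5 signal (vertical axes, each with its own range) of the 11 probe sets in SHR collateral, SHR control, WKY collateral and WKY control arteries. Points are arrays, black lines are group means with SD, and grey dashes are the 20th percentile of the same array; Adra1d M60654_at lies below the dashes on 8 arrays and S100b S53527mRNA_s_at on 1, and the third SHR collateral array is the highest point for Adra1a, Adra1b, Adra1d AF071014mRNA_s_at, Adrb1, Npy and S100b rc_AI146214_at.

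One array, SHR collateral 3, was unlike the rest of the series. Its Spearman correlation with the other 14 arrays lay between 0.496 and 0.657, against 0.805 to 0.931 among those 14, and its 20th percentile was a signal of 171.2, against 43.4 to 83.3 elsewhere. RNA integrity, read as the mean log2 of the ratio between 3' and 5' probe sets for actin and Gapdh, was 1.64 to 2.31 on SHR arrays and 2.07 to 2.62 on WKY arrays. The smooth muscle markers Acta2, Myh11, Tagln, Cnn1 and Des summed to 110600 to 520400 on SHR arrays and 266000 to 399200 on WKY arrays. The lowest sum, 110600, was that of SHR collateral 3. Of the 10 probe sets of these smooth muscle markers, 8 were never dim, or 80.0%, against 53.9% of all probe sets. Of 10 endothelial probe sets, 7 were never dim, or 70.0%, and 2 were dim on 8 or more arrays. Most probe sets of both lists were thus seen, and whether they set arteries apart from other tissue was not tested. Myh11 S61948_s_at was dim on 2 arrays and Myh11 X16261_i_at on 1. The members' average differences are also given without SHR collateral 3.

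The promoter of Th is shown because Th encodes tyrosine hydroxylase, the rate-limiting enzyme of noradrenaline synthesis, and because it was the only one of the 7 members with a promoter in the RefSeq table (build GRCr8) that held a full cyclic AMP response element. The element was searched as TGACGTCA, which reads the same on both strands, in the 250 bases before each gene's start. It was found in 1 of 7 members and in 531 of 33469 promoters, or 1.59%. The Th stretch lies at chr1:207508219-207508347 on the minus strand, ends at the last base before the start of transcription, and has the element in capitals, from base -69 to base -62.
Th promoter: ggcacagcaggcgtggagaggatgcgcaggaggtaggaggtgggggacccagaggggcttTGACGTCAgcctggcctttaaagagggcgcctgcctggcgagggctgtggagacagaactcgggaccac
The match describes the letters of this window in the reference genome and says nothing of binding in these arteries.

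Among the receptors, Adra1b had the largest average strain difference, 0.84 on the log2 scale with SHR above WKY, and it did not pass the adjusted threshold. Adra1b encodes the alpha1B receptor, which in arteries is known for roles in contraction and in smooth muscle growth. The log2 signal of Adra1b was 9.07, 8.47, 9.91 and 8.15 in SHR collateral arteries and 8.15, 8.31, 8.57 and 8.72 in SHR control arteries. It was 7.23, 7.60, 8.59 and 8.47 in WKY collateral arteries and 7.94, 7.65 and 7.47 in WKY control arteries. All 4 SHR control arrays were above all 3 WKY control arrays, while in collateral arteries 2 WKY arrays lay within the SHR range.

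The Adra1b group means fell in the order SHR collateral (8.90 ± 0.78, SD, n = 4), SHR control (8.44 ± 0.26, n = 4), WKY collateral (7.97 ± 0.66, n = 4) and WKY control (7.69 ± 0.24, n = 3). Collateral and control arteries of the same strain overlapped in both strains. SHR minus WKY was 0.75 ± 0.49 (SE) in control arteries, with an adjusted p of 0.905 by limma, and 0.93 ± 0.45 in collateral arteries, with an adjusted p of 0.647. Averaged over vessel types it was 0.84 ± 0.33, a 1.79-fold difference with a 95% interval of 1.10 to 2.91, an unadjusted p of 0.0217 and an adjusted p of 0.316. Without SHR collateral 3 the collateral difference was 0.59 and the average 0.67. The average collateral change was 0.37 ± 0.33, and 0.21 without that array. With the 3' to 5' ratio as a covariate, a fit added after seeing the data, the average was 1.24 ± 0.46 with an adjusted p of 0.586. In whole arteries such as these, fewer cells of a type and less RNA per cell cannot be told apart.

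Adra1d encodes the alpha1D receptor, which is known for contraction of large conduit and mesenteric arteries in the rat. With AF071014mRNA_s_at its log2 signal was 7.31, 9.75, 10.78 and 9.24 in SHR collateral arteries, 7.89, 9.78, 9.27 and 9.94 in SHR control arteries, 8.72, 9.36, 10.07 and 9.42 in WKY collateral arteries and 8.46, 9.26 and 9.61 in WKY control arteries. The 4 groups overlapped throughout, and both the lowest and the highest array were SHR collateral ones. The average strain difference was -0.01 ± 0.44, with a 95% interval of -0.93 to 0.92, and the average collateral change was 0.17 ± 0.44. Without SHR collateral 3, its highest array, these were -0.26 and -0.08. As a fold, the interval of the strain difference runs from 0.524 to 1.89.

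The other Adra1d probe set, M60654_at, gave signals of 19.18 to 143.9. It was dim on 3 of 4 SHR collateral arrays, against 1 of 4 SHR control arrays, and on all 4 WKY collateral arrays, against 0 of 3 WKY control arrays. Its log2 signal was 5.08 to 5.89 in WKY collateral arteries and 5.93 to 6.83 in WKY control arteries. These groups did not overlap, narrowly for the nearest pair (5.89 against 5.93), as was so for 6.70% of all tested probe sets. In SHR it was 4.26 to 7.01 in collateral and 5.35 to 7.17 in control arteries, which did overlap. On all 15 arrays AF071014mRNA_s_at was the brighter of the pair, by 1.73 to 4.98 on the log2 scale with a median of 2.88. Only a fit with no filter included M60654_at, where collateral minus control was -0.70 ± 0.67 in SHR and -1.02 ± 0.72 in WKY, with adjusted p-values of 0.951 and 1.0 by limma.

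Adra1a, which encodes the alpha1A receptor that contracts resistance arteries, varied more between arrays of 1 group than almost any tested probe set: its within-group SD was 1.52, larger than that of 98.2% of them, whose median was 0.72. The arrays read log2 signals of 7.37, 7.41, 11.18 and 5.96 in SHR collateral arteries and 9.10, 6.25, 9.09 and 7.49 in SHR control arteries. It was 8.29, 9.19, 7.34 and 7.16 in WKY collateral arteries and 8.34, 7.52 and 9.61 in WKY control arteries. The high SHR collateral value was SHR collateral 3, and no group stood clear of another. With that array the SD was 2.24 in SHR collateral arteries. It was 1.38 in SHR control, 0.94 in WKY collateral and 1.05 in WKY control arteries. The average strain difference was -0.26 ± 0.67, and -0.79 without SHR collateral 3; the average collateral change was -0.25 ± 0.67, and -0.78 without it, and in SHR alone the change was 0.00 ± 0.91, and -1.07 without it.

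Adrb1 encodes the beta1 receptor, best known from the heart. Adrb1 had a log2 signal of 7.28, 7.85, 9.47 and 6.11 in SHR collateral arteries, 7.11, 6.60, 7.45 and 7.14 in SHR control arteries, 6.38, 7.02, 7.72 and 8.27 in WKY collateral arteries and 6.70, 8.11 and 8.36 in WKY control arteries. It was never dim, but lay at or above its array's 40th percentile on only 5 of 15 arrays. The collateral change was 0.60 ± 0.67 in SHR, but 0.0 without SHR collateral 3, and -0.38 ± 0.72 in WKY. The difference between these changes was 0.98 ± 0.98, with an adjusted p of 1.0 by limma, and was 0.38 without SHR collateral 3. The average strain difference was -0.16 ± 0.49 and the average collateral change 0.11 ± 0.49, and without that array they were -0.46 and -0.19.

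**Figure D2:**
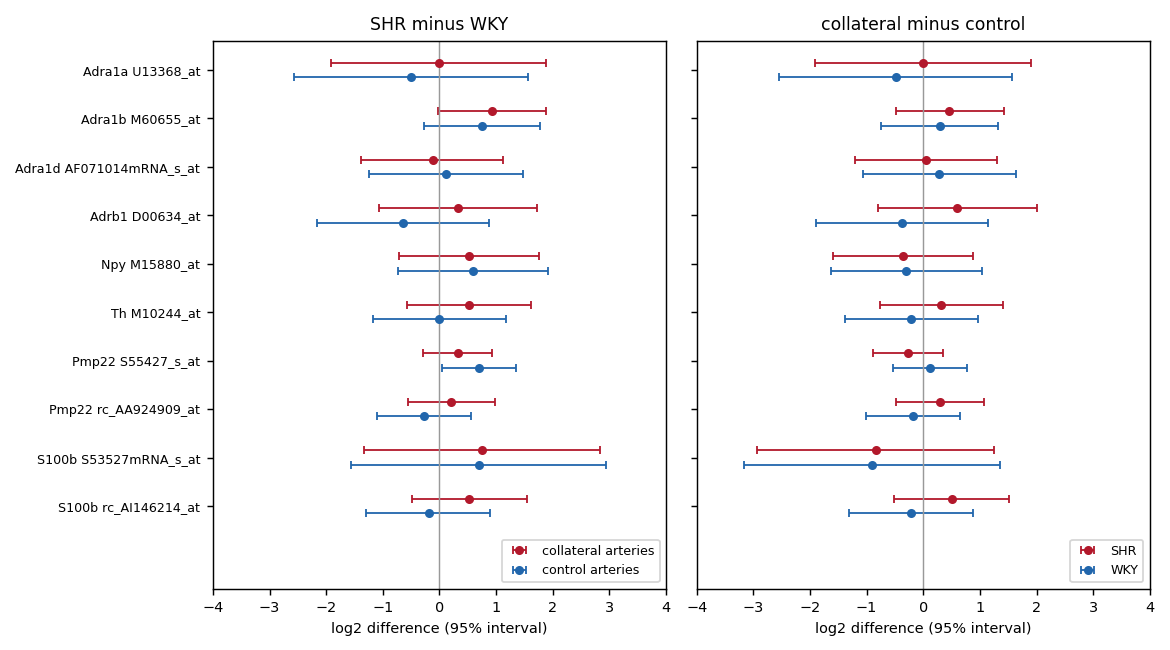
Log2 difference (horizontal axes) of the 10 tested probe sets with its 95% interval, for SHR minus WKY (left, red for collateral arteries and blue for control arteries) and for collateral minus control arteries (right, red for SHR and blue for WKY). The interval for Pmp22 S55427_s_at in control arteries, 0.05 to 1.36, is the only one that does not reach 0.

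Of the 10 tested probe sets, 0 had an adjusted p under 0.05 by limma for SHR minus WKY in control arteries, where 0.0307% of all 6512 tested probe sets did, and 1 had an unadjusted p under 0.05, against 6.46% of all. Groups did not overlap for 2 of 10, Adra1b and Pmp22 S55427_s_at, both higher in SHR, against 4.85% of all in that direction and 8.57% in either. In collateral arteries 0 of 10 passed either the adjusted or the unadjusted threshold, against 0.0% and 7.62% of all, and 0 of 10 did not overlap, against 3.62%. For the average of vessel types 0 of 10 passed the adjusted threshold, against 0.891% of all, and 2 of 10 had an unadjusted p under 0.05, against 11.9%. With 10 probe sets, these shares do not set the members apart from the array.

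Collateral minus control arteries gave 0 of 10 probe sets at an adjusted p under 0.05 by limma in SHR, in WKY, in their mean and in the difference between strains, where 0.0% of all tested probe sets passed in each. At an unadjusted p under 0.05 the count was also 0 of 10 in all of these, against 3.76% of all in SHR, 3.16% in WKY, 5.11% in the mean and 1.90% in the difference. Groups did not overlap for 0 of 10 in SHR and 0 of 10 in WKY, against 1.72% and 6.70% of all. The SE of the members' collateral changes ran from 0.29 to 1.00 in SHR and from 0.31 to 1.08 in WKY, and the 95% intervals in SHR ran from -2.93 to 1.25 for S100b S53527mRNA_s_at and from -0.88 to 0.34 for Pmp22 S55427_s_at.

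Th was never dim, lying between the 51.8th and the 83.6th percentile of its array. The log2 signal of Th was 9.88, 10.17, 10.61 and 8.49 in SHR collateral arteries and 9.30, 9.34, 9.15 and 10.08 in SHR control arteries. It was 8.55, 10.62, 9.69 and 8.21 in WKY collateral arteries and 8.76, 9.81 and 9.86 in WKY control arteries. The highest and the lowest array were both WKY collateral ones, and all groups overlapped. The average strain difference was 0.26 ± 0.38, a 1.19-fold difference with a 95% interval of 0.686 to 2.08, and the average collateral change was 0.06 ± 0.38, with an interval of -0.74 to 0.85. Without SHR collateral 3 these were 0.12 and -0.08.

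Some probe sets of the catecholamine pathway were dim on most arrays and others on none. Of 14 genes listed for synthesis, storage, uptake and breakdown beside Th, 11 had probe sets on the array, 18 in all, of which 6 were never dim, or 33.3%, and 7 were dim on 8 or more arrays, or 38.9%, against 18.6% of all probe sets. The following were chosen after their values were seen: Ddc, the enzyme after tyrosine hydroxylase, was dim on 12 of 15 arrays, and Chgb, a protein of secretory granules, on 15. The vesicular monoamine transporter Slc18a2 was dim on 11 arrays with 1 probe set and on 6 with the other. Pnmt, which makes adrenaline, and the monoamine oxidases Maoa and Maob were never dim. Dbh, which makes noradrenaline from dopamine, was dim on 3 arrays, and Slc6a2, the noradrenaline transporter of sympathetic axons, was never dim with L29573_s_at but dim on 14 arrays with Y13223cds_at. A dim probe set gives a bound and does not show that the transcript was missing.

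**Figure D3:**
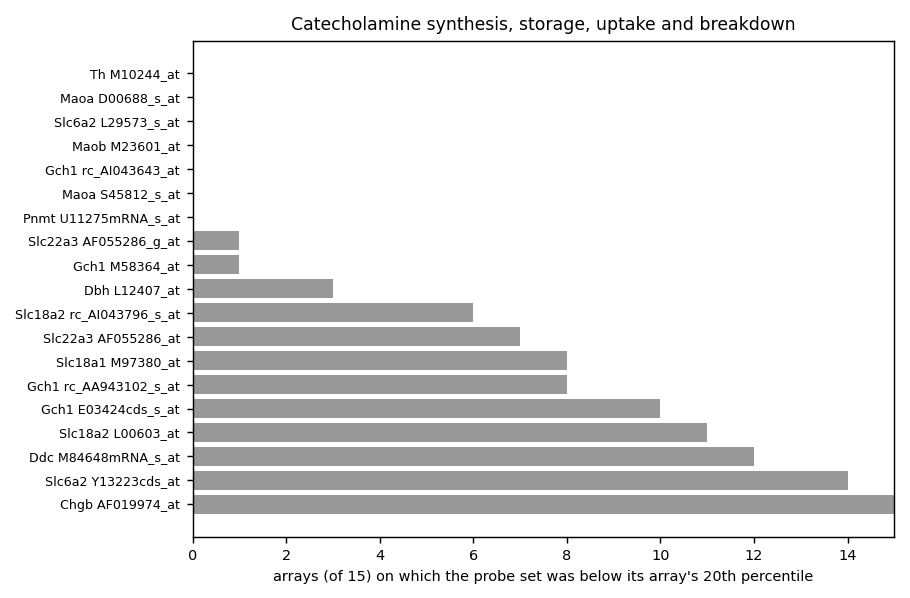
Number of arrays, of 15, on which Th (top row) and each of the 18 probe sets of the catecholamine list fell below the 20th percentile of their own array. Th and 6 others have no bar because they were never below it, and Chgb was below it on all 15.

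In that list 0 of 8 tested probe sets passed the adjusted threshold in any comparison, and 0 had an unadjusted p under 0.05 in the average strain difference or the average collateral change by limma. The median log2 difference was 0.30 for SHR minus WKY, against 0.07 over all tested probe sets, and 0.07 for collateral minus control, against 0.04. For SHR minus WKY the smallest p-values belonged to Slc22a3 AF055286_g_at, an extraneuronal monoamine transporter (1.21 ± 0.59), and Gch1 M58364_at, which makes the cofactor of tyrosine hydroxylase (-0.81 ± 0.44). For collateral minus control they belonged to Dbh (1.08 ± 0.58) and Slc6a2 L29573_s_at (0.46 ± 0.28). Gch1 rc_AI043643_at, never dim but not tested, went the other way. Its SHR and WKY means were 7.28 and 6.59 in collateral, and 7.36 and 6.61 in control arteries. Gch1 E03424cds_s_at and rc_AA943102_s_at were dim on 10 and 8 arrays, and Slc22a3 AF055286_at on 7. Dbh reached 10.03 on SHR collateral 3, the highest of its 15 values.

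Npy encodes neuropeptide Y, a cotransmitter of sympathetic nerves that constricts arteries and strengthens the action of noradrenaline. Npy had a log2 signal of 7.86, 8.03, 9.59 and 8.02 in SHR collateral arteries and 8.99, 8.24, 8.49 and 9.22 in SHR control arteries. It was 6.38, 7.54, 8.66 and 8.82 in WKY collateral arteries and 8.36, 7.07 and 9.02 in WKY control arteries. The SHR collateral and SHR control groups overlapped: 3 collateral arrays lay below all 4 control arrays, and SHR collateral 3 lay above them all. The SHR collateral change was -0.36 ± 0.59 with an adjusted p of 0.952 by limma, and -0.77 without SHR collateral 3. The average strain difference was 0.56 ± 0.43 (adjusted p = 0.699), and 0.35 without that array; the average collateral change was -0.33 ± 0.43, and -0.53 without it.

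Of the peptide cotransmitters and their receptors, 0 of 7 tested probe sets passed the adjusted threshold in any comparison, with a median log2 strain difference of 0.12 against 0.07 over all. Npy1r, the neuropeptide Y receptor that mediates vasoconstriction, was the second smallest p for the collateral change at -0.49 ± 0.39. Dpp4 J04591_at, a peptidase that shortens neuropeptide Y, had an SHR minus WKY difference of 0.75 ± 0.51 and a collateral change of 0.80 ± 0.51. Calca L00111unknown_S536_at, the gene of calcitonin gene-related peptide, had a strain difference of 0.55 ± 0.41. None of these passed, with adjusted p-values from 0.636 to 0.99 by limma. Untested probe sets of both genes went the other way. Dpp4 rc_AA892069_s_at, dim on 9 arrays, had collateral and control means of 5.07 and 6.31 in SHR, and 5.69 and 6.32 in WKY. Calca M11597_at, dim on 7, had SHR and WKY means of 5.26 and 6.79 in collateral, and 5.59 and 6.02 in control arteries.

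Pmp22, which encodes a protein of compact peripheral myelin that is also made by many non-neural cells, was the steadiest member, with within-group SDs of 0.41 and 0.42 for its 2 probe sets. With S55427_s_at it lay between the 94.3rd and the 97.6th percentile on all arrays. Its log2 signal there was 13.31, 12.80, 12.51 and 13.72 in SHR collateral arteries, 13.27, 13.44, 13.64 and 13.07 in SHR control arteries, 13.43, 12.47, 12.46 and 12.71 in WKY collateral arteries and 13.02, 12.44 and 12.48 in WKY control arteries. The 4 SHR control arrays were above the 3 WKY control arrays, narrowly for the nearest pair (13.07 against 13.02), while the collateral groups overlapped.

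SHR minus WKY for Pmp22 S55427_s_at was 0.70 ± 0.31 in control arteries (13.35 ± 0.24, SD, n = 4, against 12.65 ± 0.33, n = 3), with an unadjusted p of 0.0375 and an adjusted p of 0.729 by limma. It was 0.32 ± 0.29 in collateral arteries and 0.51 ± 0.21 on average, a 1.42-fold difference with a 95% interval of 1.04 to 1.94 and an adjusted p of 0.347. Without SHR collateral 3 the collateral difference was 0.51 and the average 0.61, and the average collateral change was -0.07 ± 0.21 with that array and 0.02 without it. The probe set rc_AA924909_at did not show this: its control difference was -0.27 ± 0.40 (8.76 ± 0.41 in SHR and 9.03 ± 0.13 in WKY) and its average -0.03 ± 0.27, or -0.11 without SHR collateral 3. Its average collateral change was 0.05 ± 0.27, or -0.02 without that array. The gap between the 2 probe sets ran from 2.92 on WKY collateral 3 to 5.37 on SHR control 3. The strain difference in Pmp22 thus rested on which probe set was read, and it passed the adjusted threshold with neither.

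S100b encodes a calcium-binding protein of Schwann cells that adipocytes also make. With S53527mRNA_s_at its log2 signal was 7.99, 7.49, 8.68 and 10.15 in SHR collateral arteries and 10.85, 9.50, 11.48 and 5.85 in SHR control arteries. It was 9.71, 7.67, 7.55 and 6.39 in WKY collateral arteries and 10.32, 8.03 and 7.83 in WKY control arteries. Both the lowest and the highest of the 15 values were in SHR control arteries, a range of 5.63, and the within-group SD of 1.72 was larger than that of 99.4% of tested probe sets. The average collateral change was -0.87 ± 0.73 (adjusted p = 0.990 by limma) and the average strain difference 0.72 ± 0.73. Without SHR control 4, the lowest array, these were -1.47 and 1.31, and without SHR collateral 3 they were -0.89 and 0.70. With the 3' to 5' ratio as a covariate the strain difference was -0.11.

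S100b S53527mRNA_s_at was high on most, but not all, arrays with high adipocyte markers. The adipocyte list had 6 genes, of which 4 had probe sets here, 7 in all, and their summed signal was 6196 to 54530 in SHR collateral, 3804 to 77340 in SHR control, 1758 to 16210 in WKY collateral and 5645 to 37670 in WKY control arteries. Fabp4, the fatty acid carrier of adipocytes, and Lpl, lipoprotein lipase, made up its tested part, and the 3 probe sets of Plin1 and Cd36 were dim on 8 or more arrays. Of the 5 arrays with the highest S100b signal, 4 were among the 5 with the highest adipocyte sum, and of the 5 with the lowest S100b signal 4 were among the 5 with the lowest sum. SHR control 3 had the highest S100b signal, 11.48, and the second highest sum, 56900, while SHR control 4 had the lowest, 5.85, and a sum of 3804. SHR collateral 1 was an exception, with a high sum of 42110 and an S100b signal of 7.99. The part of adipocyte RNA in the S100b signal was not tested.

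**Figure D4:**
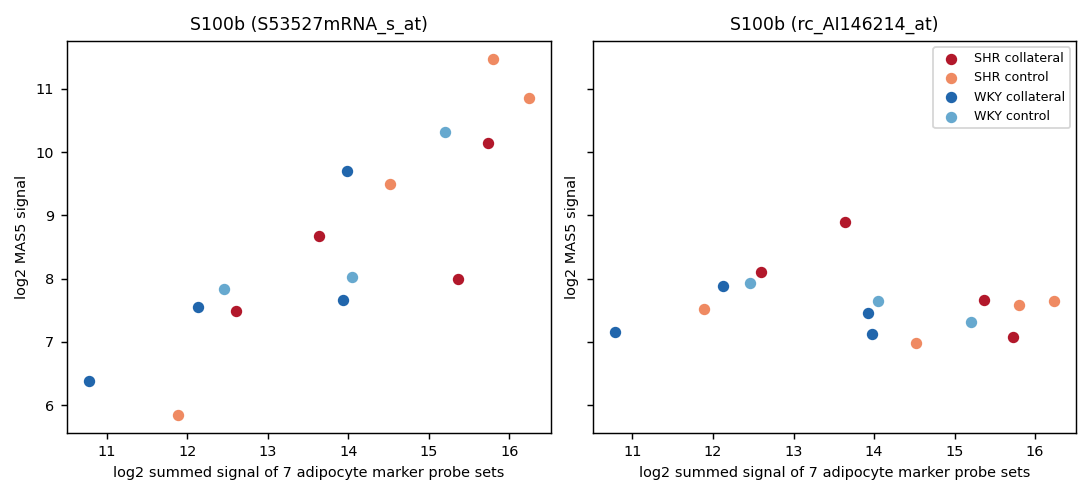
Log2 MAS5 signal of each S100b probe set (vertical axes) against the log2 of the summed signal of 7 adipocyte marker probe sets (horizontal axes), 1 point per array, coloured by group. S53527mRNA_s_at spans 5.85 to 11.48 and is mostly higher where the marker sum is higher, with SHR collateral 1 (sum 42110, signal 7.99) as an exception, and rc_AI146214_at stays between 6.98 and 8.89.

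The other S100b probe set, rc_AI146214_at, kept a log2 signal of 7.67, 8.11, 8.89 and 7.08 in SHR collateral arteries, 7.64, 6.98, 7.59 and 7.52 in SHR control arteries, 7.12, 7.46, 7.88 and 7.15 in WKY collateral arteries and 7.31, 7.65 and 7.93 in WKY control arteries. Its arrays lay between the 31.3rd and the 47.3rd percentile, and groups overlapped. The first probe set minus this one ran from -1.67 on SHR control 4 to 3.89 on SHR control 3 and was positive on 9 of 15 arrays. The average strain difference was 0.17 ± 0.35, and 0.01 without SHR collateral 3; the average collateral change was 0.14 ± 0.35, and -0.02 without it. The pair of S100b probe sets therefore did not give the same order of arrays.

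Among the other Schwann cell and myelin genes, 2 of 20 tested probe sets passed the adjusted threshold for the average of SHR minus WKY, against 0.891% of all tested probe sets, in opposite directions, and 0 passed in the other comparisons. The list's median was 0.21 against 0.07 over all. Apod, the lipid-carrier apolipoprotein D, which Schwann cells and fibroblasts make, had a log2 signal of 9.47, 8.35, 11.75 and 11.14 in SHR collateral, 10.75, 9.53, 11.88 and 8.49 in SHR control, 10.03, 3.73, 5.26 and 6.34 in WKY collateral and 7.58, 4.63 and 7.48 in WKY control arteries. WKY collateral 1 was the only WKY array within the SHR range, and Apod was dim on 3 arrays, all WKY. It was higher in SHR by 3.72 ± 0.82 (adjusted p = 0.0336 by limma), but lost the call in 10 of the 15 fits that each left out 1 array, with differences of 3.23 to 4.33; it kept the call without SHR collateral 2 or 4, SHR control 2 or 4, or WKY collateral 1. It also lost it with quantile normalization (adjusted p = 0.0631), equal array medians (0.0846) and no variance trend (0.0968).

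Egr2, a transcription factor that drives myelination in Schwann cells and is also an early-response gene in many cells, ran the other way. Its log2 signal was 10.85, 12.31, 10.99 and 12.19 in SHR collateral, 11.54, 12.76, 11.77 and 11.69 in SHR control, 13.82, 12.44, 12.35 and 13.35 in WKY collateral and 14.12, 13.84 and 13.53 in WKY control arteries. The strains did not overlap within either vessel type, narrowly in collateral arteries (12.31 against 12.35 for the nearest pair). Of all tested probe sets, 8.57% did not overlap in control and 3.62% in collateral arteries. It was lower in SHR by an average log2 difference of -1.65 ± 0.29 (adjusted p = 0.00643 by limma) and kept the call with each array left out, with differences of -1.78 to -1.51. With the 3' to 5' ratio as a covariate the adjusted p was 0.0632 for Egr2 and 0.734 for Apod, with differences of -2.02 and 2.72.

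**Figure D5:**
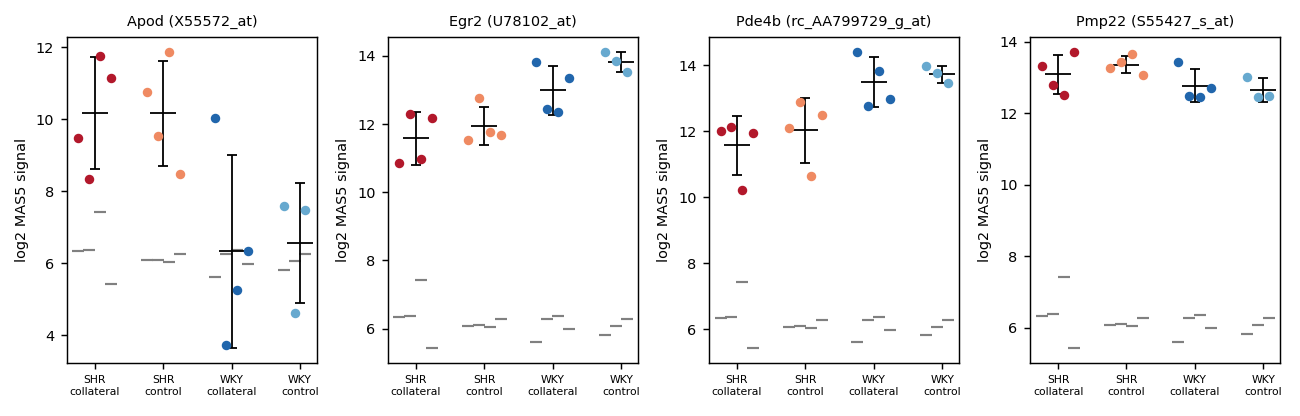
Log2 MAS5 signal (vertical axes) of Apod, Egr2, Pde4b and Pmp22 S55427_s_at on the arrays of SHR collateral, SHR control, WKY collateral and WKY control arteries, with group means and SD in black and the 20th percentile of each array as grey dashes. For Apod, WKY collateral 1 is the only WKY array that reaches the SHR values, and for Egr2 and Pde4b all SHR arrays lie below the WKY arrays of the same vessel type.

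Signalling below the adrenergic receptors gave 1 call. Of 33 tested probe sets of 18 genes (G proteins, phospholipases, adenylyl cyclases, phosphodiesterases, receptor kinases and arrestins), 1 passed the adjusted threshold for the average strain difference, against 0.891% of all, and 0 in any other comparison. In the average strain difference 4 had an unadjusted p under 0.05 with SHR higher and 6 with SHR lower, against 6.73% and 5.13% of all, and the list's median was -0.09 against 0.07 over all. The one was Pde4b rc_AA799729_g_at, a phosphodiesterase that breaks down cyclic AMP. Its log2 signal was 12.00, 12.12, 10.23 and 11.95 in SHR collateral, 12.09, 12.89, 10.64 and 12.50 in SHR control, 14.41, 12.77, 13.82 and 12.97 in WKY collateral and 13.96, 13.76 and 13.46 in WKY control arteries. All SHR arrays were below the WKY arrays of the same vessel type, with an average difference of -1.81 ± 0.35 (adjusted p = 0.0147 by limma). Of all tested probe sets, 8.57% did not overlap between strains in control and 3.62% in collateral arteries. The call was lost in 4 of 24 alternatives: the adjusted p was 0.0508 without WKY control 1, 0.0531 with equal array medians, 0.0662 with no variance trend and 0.124 with the 3' to 5' ratio as a covariate. The 3 other Pde4b probe sets, named after their values were seen, had SHR group means of 7.40, 6.27 and 7.09 in collateral and 8.12, 5.79 and 7.37 in control arteries, each below its WKY mean of 8.70, 7.80 and 8.36 in collateral and 9.49, 7.98 and 8.18 in control arteries. In that order they were dim on 0, 4 and 2 arrays.

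In the same list Gnai2, an inhibitory G protein subunit, had an average strain difference of 0.55 ± 0.21. The cyclase Adcy6 and the receptor kinase Grk6, read with Y09365cds_s_at, had the smallest p-values for the collateral change. These changes were -0.88 ± 0.29 and 1.23 ± 0.46, with adjusted p-values of 0.807 and 0.873 by limma. Y09365cds_s_at was dim on 1 array. The other Grk6 probe set, AF040750_at, was brighter and never dim, and did not show this rise. Its collateral and control means were 11.06 and 10.96 in SHR, and 10.62 and 10.91 in WKY. The other adrenergic receptors, alpha2 and beta3, had 4 tested probe sets, of which 0 passed in any comparison; the average SHR minus WKY difference was 0.35 ± 0.29 for Adrb3 and -0.15 ± 0.34 for Adra2a with U79031_at, while the average collateral change was 0.32 ± 0.29 for Adra2a with S79778mRNA_s_at and 0.21 ± 0.40 for Adra2b.

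For axons and synapses, 0 of 19 tested probe sets passed the adjusted threshold in any comparison, 3 had an unadjusted p under 0.05 for SHR higher than WKY on average and 0 for SHR lower, against 6.73% and 5.13% of all. Syp, which encodes the synaptic vesicle protein synaptophysin, came nearest. Syp had a log2 signal of 8.39, 8.71, 7.74 and 8.07 in SHR collateral, 9.02, 8.20, 8.55 and 9.56 in SHR control, 7.45, 7.85, 6.77 and 8.16 in WKY collateral and 6.85, 6.09 and 6.80 in WKY control arteries. The control groups did not overlap, as was so for 4.85% of all tested probe sets in that direction and 8.57% in either. The WKY control arrays lay between the 20.3rd and the 33.8th percentile, near the level called dim. The average difference for Syp was 1.46 ± 0.35 with an adjusted p of 0.0556 by limma. With rc_AA957930_s_at, the microtubule protein gene Mapt had a strain difference of 0.74 ± 0.26 (adjusted p = 0.229 by limma) and a collateral change of -0.56 ± 0.26. Mapt X79321_at, also never dim, did not show this fall. Its collateral and control means were 9.34 and 9.12 in SHR, and 9.24 and 9.02 in WKY. The axonal hydrolase Uchl1 had a collateral change of 0.75 ± 0.35 with rc_AA859882_s_at. With D10699_at, also never dim, its collateral and control means were 9.80 and 8.70 in SHR, but 9.35 and 9.46 in WKY. Uchl1 D10699_g_at was dim on 6 arrays and not tested.

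Nerve growth factors, their receptors and guidance genes gave 0 of 11 tested probe sets past the adjusted threshold in any comparison, with a median strain difference of 0.01 against 0.07 over all. Ntf3, neurotrophin 3, had an average strain difference of -0.76 ± 0.34 (adjusted p = 0.378 by limma) and Gdnf one of -0.62 ± 0.41. The average collateral change was -0.55 ± 0.34 for Ntf3 and 0.49 ± 0.31 for Ngfr U25650_f_at, the low-affinity neurotrophin receptor. With Ngfr X05137_at, also never dim, the collateral and control means were 10.66 and 10.53 in SHR, but 10.02 and 10.49 in WKY.

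Of 8 tested macrophage probe sets, 3 passed for the average strain difference, against 0.891% of all, and 5 did not. Those that passed were 2 of Cd74, which helps load class II antigen complexes (3.52 ± 0.61 and 3.26 ± 0.53, adjusted p = 0.00643 and 0.00484 by limma), and 1 of C1qb, a complement chain (2.21 ± 0.47, 0.0269). The Cd74 calls were lost only with the 3' to 5' covariate, 1 of 24 alternatives, and the C1qb call in 12 of 24, among them the fits without SHR collateral 1, SHR control 1 or 3, WKY collateral 2, 3 or 4, or WKY control 1 or 3 (differences of 1.78 to 2.48 over all 24). The strains overlapped in the list's sum within each vessel type: the summed signal was 18210 to 30090 in SHR collateral, 5404 to 51550 in SHR control, 4780 to 19300 in WKY collateral and 3477 to 6304 in WKY control arteries. The median log2 strain difference was 2.02 for the macrophage list, 1.24 for the 4 tested adipocyte probe sets and -0.38 for the 10 of smooth muscle. The 5 adrenal or ganglion genes with a probe set summed to 411.0 to 1159 on 14 arrays and to 3415 on SHR collateral 3. The part of these cells in the differences of Adra1b, Pmp22, Apod and Syp was not tested.

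The probe sets whose signal ran most like each member but S100b are given as a description, over the 14 arrays without SHR collateral 3. They had the highest Pearson r over all tested and singly named probe sets. S100b was left out because its brightest probe set, S53527mRNA_s_at, was dim on 1 array. For Pmp22 S55427_s_at they were Apod (r = 0.92), Marcks (0.91) and Selenop (0.90). For Th they were F9 (0.91), Adgrl2 (0.90) and Thbd (0.89). For Adra1b they were Fkbp1a (0.83), Cdh6 (0.77) and Pea15 (0.77), for Adra1d Nr2f1 (0.89), Nsun4 (0.87) and Camk1g (0.86), and for Adra1a Ece1 (0.82), Edn1 (0.78) and Cldn7 (0.77). For Adrb1 the nearest was Ccdc124 (0.85), and for Npy it was LOC102547955 (0.86). Adding SHR collateral 3 moved r to 0.16 for Ece1, to 0.03 for Pea15 and to 0.72 for Apod, and the 14 arrays share their strains and vessel types, so no test is given.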

How the data were processed

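Total RNA of mesenteric arteries was hybridised to 15 rat arrays. The authors deposited 1 MAS5 signal for each probe set on each array; the submitters' processing notes name GCOS and MAS5, with no version. The signals had been scaled: the mean after trimming 2% was 1001.06 to 1001.75 on every array. Signals were set to a floor of 1 and taken to log2. Testing needed a signal at or above the array's own 40th percentile on 3 or more arrays (6512 of 8740, without 59 control probe sets). Gene names came from the platform annotation, which gave 7006 probe sets 1 symbol, 308 several and 1426 none. Groups were taken from the sample labels. Comparisons used limma 3.58.1 (R 4.3.3) over all 15 arrays, with a mean per group, a variance trend and Benjamini-Hochberg adjustment over all tested probe sets at 0.05, after tests on simulated data. The number of arrays and signal over background limit the precision. The members and gene lists were chosen with earlier results of these data known. From each list, genes past the threshold and the 2 with the smallest p in the average strain difference and in the average collateral change were named. The tests were repeated with other scalings, filters, models, thresholds and with arrays left out; the 3' to 5' covariate was added after seeing the data.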

Additional observations from a re-analysis of the deposited data

Results flagged for a closer look

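Of 33 groups of 4 arrays examined over the 11 probe sets, 2 held an array whose gap to its neighbour, as a share of the group's range, was above Dixon's critical value of 0.829. Chance marks about 1 in 20 such groups. Npy reached a log2 signal of 9.59 on SHR collateral 3, against 7.86 to 8.03 on the other SHR collateral arrays (gap over range 0.907). This is the array that stood apart from the series and was the highest for 6 of the 11 probe sets. Adra1d M60654_at fell to 5.35 on SHR control 1, against 7.02 to 7.17 on the other SHR control arrays (0.918), below the 20th percentile of that array.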

How the results depend on the processing

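The count of member probe sets past the adjusted threshold was 0 in all 7 comparisons under 24 alternatives and in the 4 that could use only the compared arrays, of 10 tested, or 11 with no filter and 7 with a 60th percentile filter. Of 1699 member differences recomputed, 1695 moved by less than the spread between replicates, taken as 1 within-group SD. The other 4 moved further. They were Adra1b in collateral arteries (1.55 with the 3' to 5' covariate) and 3 comparisons of Adra1d AF071014mRNA_s_at with array weights (-1.25, -1.13 and -1.34). That spread was wide for some members: the S100b S53527mRNA_s_at collateral change in SHR, -0.84, reached -2.03 without SHR control 4 and counted as not moved. Some differences near 0 changed sign, as in 13 of 25 alternatives for the Adra1a collateral change in SHR. The lowest adjusted p by limma was 0.0525 (Pmp22 S55427_s_at, average strain difference of 0.63, array weights). Counts over all tested probe sets moved more. For SHR minus WKY in control arteries the count of 2 became 0 with no filter, 0 with a 60th percentile filter, 1 with no variance trend, 14 with array weights, 4 with the replicate block, 7 with only the compared arrays, 0 with the 3' to 5' covariate and 0 to 6 with 1 array left out. In collateral arteries the count of 0 became 26 with array weights, 6 with the replicate block, 2 with only the compared arrays, 6 at an adjusted p under 0.10 and 0 to 7 with 1 array left out. For the average of vessel types the count of 58 became 31 with equal array medians, 34 with no variance trend, 184 with array weights, 134 with the replicate block, 3 with the covariate, 119 at 0.10 and 30 to 101 with 1 array left out. The cause was not tested. Whether the replicate numbers pair arrays was not settled. Deviations of same-numbered arrays of a strain correlated from -0.070 to 0.306, and those of differently numbered arrays from -0.269 to 0.113. Dim signal limits Adra1d M60654_at, and the number of arrays limits every test.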
